A study of Mus musculus with 2 samples.

Results

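Rgs2 and Rgs10, a pair of genes that restrain G protein signalling, had strongly negative log ratios on both dye-reversed arrays in a comparison of splenic gamma delta T cells with and without the LAT3YF allele, while none of the other 4 measured Rgs genes reached 2-fold in the mean of the arrays. The set was defined by symbol, as every gene named Rgs followed by a number in the platform annotation that had a probe assigned to it alone. It holds 6 of the 4331 genes measured, namely Rgs2, Rgs3, Rgs5, Rgs10, Rgs13 and Rgs19. The RefSeq table lists 21 mouse genes with such symbols, and the other 15, among them Rgs1 and Rgs16, were not analysed here. The set was put together because the ratios of Rgs2 and Rgs10 were already known to be strongly negative, so the values of the members are descriptions and no test was made of them.

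G protein-coupled receptors activate heterotrimeric G proteins by loading the alpha subunit with GTP. RGS proteins bind that GTP-loaded subunit and speed up GTP hydrolysis, which ends the signal of both the alpha subunit and the released beta-gamma pair. In leukocytes these proteins are known for limiting responses to chemokines, and several of their genes are induced or shut off when cells are activated.

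The cells were CD5-positive gamma delta T cells from mouse spleen, taken from wildtype animals or from animals with the LAT3YF allele, enriched with magnetic anti-CD5 beads and sorted by flow cytometry. LAT is the membrane adaptor that carries the T cell receptor signal onward, and in the 3YF form tyrosines of it are replaced by phenylalanine. Each of the 2 arrays carried total RNA of both populations, and the dyes were exchanged between them. The labels state no age, strain background, sex or number of animals or pools. They name no separate RNA extracts for the 2 arrays, so both arrays together count as 1 replicate. Every SD below is the spread between the 2 arrays and is not read as variation between animals.

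All ratios are log10 of the authors' 2-channel ratio, with the - polarity array multiplied by -1 so that both arrays point the same way. Base 10 is an assumption, because the labels do not name the base. The numerator of the ratio is not named either, so a negative value marks a transcript more abundant in 1 of the 2 populations, and which of them is LAT3YF is not settled. Exchanging the populations would turn every sign below. A gene was called when the mean of its 2 ratios was at least 2-fold in size (0.301) and both arrays had the same sign, which is a rule of size and not a test. Across all genes 8.75% were called, 5.03% on the negative side and 3.72% on the positive side. Of the 4331 means, 2114 were below 0 and 2217 above. The median array gap, the absolute difference between a gene's 2 turned ratios, was 0.0819, and 59.6% of genes had the same sign on both arrays.

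To show where the leading genes sit in the genome, the 250 bases before the transcription start are given for Rgs2, for Rgs10 and, as a contrast, for Rgs13, which is the next protein-coding gene beside Rgs2 on chromosome 1 and had no consistent ratio. The sequences come from RefSeq (GRCm38.p6), matched by gene ID, each gene having 1 start in that table. They are written 5′ to 3′ on the strand of the gene, which is the minus strand for all of them, and lie at chr1:144004150-144004399 (Rgs2), chr7:128418173-128418422 (Rgs10) and chr1:144177373-144177622 (Rgs13). Capitals mark the letters of any motif searched, on either strand.
Rgs2: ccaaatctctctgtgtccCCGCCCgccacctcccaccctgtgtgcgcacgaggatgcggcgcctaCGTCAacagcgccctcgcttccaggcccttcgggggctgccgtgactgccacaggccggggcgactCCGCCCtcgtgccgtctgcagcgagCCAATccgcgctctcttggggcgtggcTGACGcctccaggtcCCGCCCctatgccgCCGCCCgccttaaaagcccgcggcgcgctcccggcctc
Rgs10: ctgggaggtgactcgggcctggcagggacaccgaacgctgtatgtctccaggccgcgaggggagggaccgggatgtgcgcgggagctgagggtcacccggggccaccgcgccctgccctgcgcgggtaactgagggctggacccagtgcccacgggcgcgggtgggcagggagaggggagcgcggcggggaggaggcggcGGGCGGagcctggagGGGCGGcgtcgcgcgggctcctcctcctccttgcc
Rgs13: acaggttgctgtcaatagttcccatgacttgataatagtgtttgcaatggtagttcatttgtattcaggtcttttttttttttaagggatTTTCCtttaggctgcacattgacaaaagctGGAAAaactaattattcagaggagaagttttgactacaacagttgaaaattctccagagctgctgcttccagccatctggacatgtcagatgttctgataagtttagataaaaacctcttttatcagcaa

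The windows of Rgs2 and Rgs10 were rich in G and C, and that of Rgs13 was not. Those of Rgs3, Rgs5 and Rgs19 were not examined, so this does not set Rgs2 and Rgs10 apart from the uncalled members. The GC content was 72.4% for Rgs2, 76.4% for Rgs10 and 36.0% for Rgs13, against a median of 52.4% over the 32851 promoter windows of the table. Rgs2 had 30 CpG dinucleotides and Rgs10 had 27, more than in 94.1% and 91.4% of all windows, and Rgs13 had 0. The GC box GGGCGG, the Sp1-type motif of many CpG-rich promoters, occurred 4 times for Rgs2 and 2 times for Rgs10, and 32.7% of all windows held it. Rgs2 had 1 CCAAT box (CCAAT, in 33.8% of windows) and 2 half-sites of the cAMP response element (TGACG, in 17.8% of windows), 1 on each strand, and neither occurred for Rgs10. The TATA letters TATAAA (12.4% of windows) and the PU box GAGGAA (23.3% of windows), a core bound by the myeloid and B cell factor PU.1, occurred in none of the 3 windows. Rgs13 held 2 copies of the NFAT core GGAAA (55.6% of windows). None of the motifs searched overlapped another in these windows. These matches describe the letters and do not show that a factor binds.

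Rgs10 had the most negative ratio of the family. It encodes a small RGS protein that acts on Gi-type alpha subunits and is known to be abundant in macrophages and microglia. The deposited ratio was -0.813 with + polarity and 0.807 with - polarity, which is -0.807 once turned. The sign thus reversed with the dyes, and the sizes were 6.50-fold and 6.41-fold. The mean was -0.810 ± 0.0042 (SD, 2 arrays), a 6.46-fold difference. The array gap of 0.0059 was among the smallest measured, with 4.62% of genes having a smaller one. Only 24 of the 4331 genes had a lower mean.

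Rgs2 followed. It encodes an RGS protein best known for acting on Gq, and it is an early response gene in many cell types, including activated lymphocytes. Its deposited ratios were -0.727 (+ polarity) and 0.676 (- polarity), or -0.676 after turning. They correspond to 5.33-fold and 4.75-fold, again in the same direction once the dye exchange is taken into account. The mean was -0.701 ± 0.036, a 5.03-fold difference, and 38 genes had a lower mean. The array gap was 0.0503, smaller than the median gap over all genes. On both arrays Rgs10 was the more negative of the pair, by 0.0864 (+ polarity) and 0.131 (- polarity).

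The remaining 4 members gave no call. Rgs3, which dampens signals of Gi and Gq and can act on chemokine receptor responses, had positive ratios on both arrays, 0.151 and 0.228, with a mean of 0.190 ± 0.054 (1.55-fold), and 92.2% of genes had a lower mean. Rgs19, a member of the family also known as GAIP that binds Gi-type subunits, had small negative ratios of -0.0852 and -0.0229, with a mean of -0.0540 ± 0.044 (1.13-fold). These 2 genes kept their sign between the arrays but stayed below 2-fold on each.

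Rgs5 and Rgs13 changed sign between the arrays. Rgs5, best known as a gene of pericytes and vascular smooth muscle, was at -0.120 and 0.136, with a mean of 0.00780 ± 0.18. Rgs13, a gene of germinal centre B cells and mast cells, was at 0.504 (3.19-fold) with + polarity and at -0.135 with - polarity. Its mean of 0.184 ± 0.45 was smaller than its SD, so no direction can be given. Its array gap divided by 2 came to 0.320 (2.09-fold), and 96.1% of genes had a smaller value. With 1 array per polarity, that value holds any dye effect together with the error of each array.

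**Figure D1:**
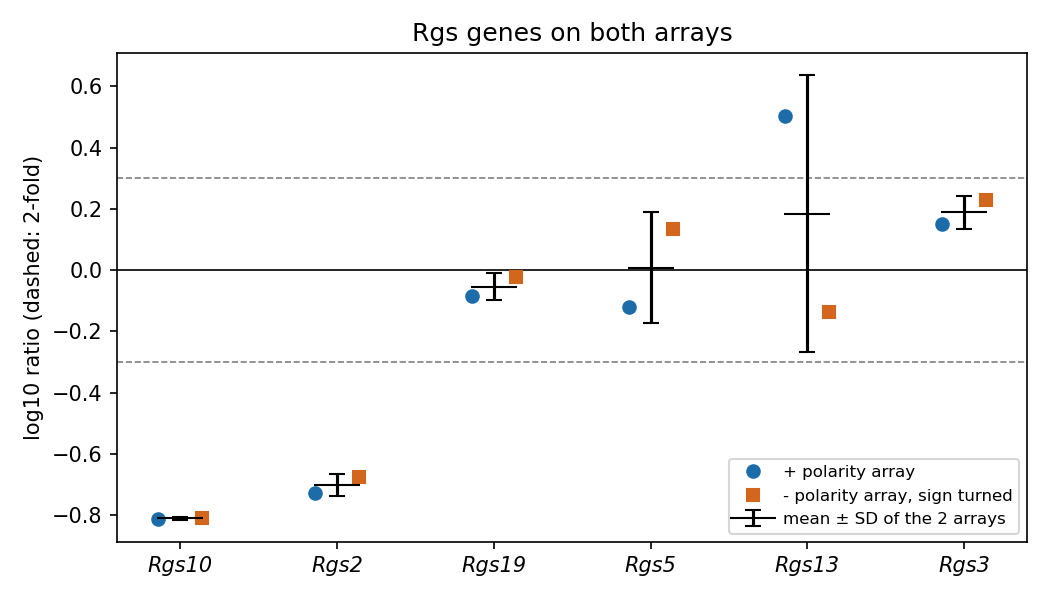
Log10 ratio (y axis) of the 6 Rgs genes (x axis, ordered by mean) on the + polarity array (circles) and the sign-turned - polarity array (squares), with the mean and SD of the 2 arrays (bars) and 2-fold marked by dashed lines. Rgs10 and Rgs2 lie at -0.810 and -0.701 with both arrays close together, whereas Rgs13 has 0.504 on one array and -0.135 on the other.

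In counts, 2 of 6 members were called, both negative, against 8.75% of all genes in either direction and 5.03% on the negative side. Nothing is read from that share, because these values chose the set. The median ratio over the 6 genes was -0.0231, near the median of 0.00231 over all genes, and it describes no single member, since Rgs2 and Rgs10 stood well apart from the other 4, which ran from -0.0540 to 0.190. Had the deposited values been natural logs, the ratio of Rgs10 would be 2.25-fold and that of Rgs2 2.02-fold, and as log2 values they would be 1.75-fold and 1.63-fold. Each member was measured by 1 probe, so agreement between probes of a gene was not available for any of them.

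The genes whose pair of ratios lay closest to those of Rgs2 and Rgs10 included several genes known from macrophages, and 2 of the 10, C1qa and C1qc, belong to the macrophage marker list used below. Likeness was the Euclidean distance over the 2 arrays, which is a small number of points, and it was measured for all 4331 genes. It rests on the same ratios that chose the set, so it names genes of like ratio and no source is read from it. Nearest to Rgs2 was C1qa, a chain of complement C1q, at -0.697 ± 0.054 and a distance of 0.0191. Then came Dennd3, which encodes an exchange factor for Rab GTPases, at -0.703 ± 0.012 and Aif1, the actin-binding protein Iba1 of macrophages, at -0.723 ± 0.057. Usp28, a deubiquitinating enzyme, was at -0.674 ± 0.026, and the cytokine gene Il18 was at -0.721 ± 0.0059.

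Nearest to Rgs10 was Pilrb2, of the paired immunoglobulin-like type 2 receptors, at -0.800 ± 0.0098 and a distance of 0.0199. C1qc, another chain of C1q, was at -0.817 ± 0.017. Slc11a1, the phagosomal metal transporter Nramp1, was at -0.821 ± 0.023. Sirpa, the receptor for CD47 on myeloid cells, was at -0.786 ± 0.022, and Pirb, an inhibitory receptor of myeloid and B cells, was at -0.838 ± 0.012.

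**Figure D2:**
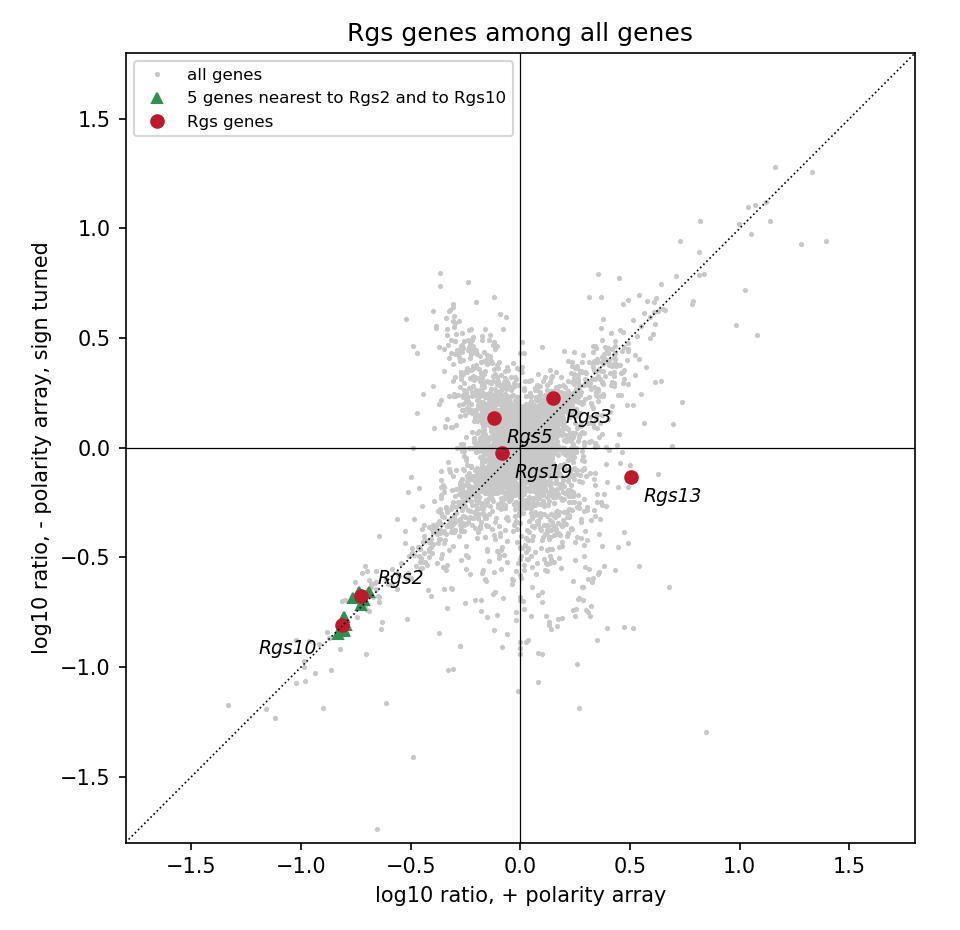
Log10 ratio on the + polarity array (x axis) against the sign-turned - polarity array (y axis) for 4331 genes (grey), the 6 Rgs genes (red circles) and the 5 genes nearest to Rgs2 and to Rgs10 (green triangles), with the line of equal ratios dotted. Rgs2 and Rgs10 lie on the dotted line far into the negative quadrant, Rgs3 (0.151 and 0.228) and Rgs19 (-0.0852 and -0.0229) lie near the line closer to 0, and Rgs5 and Rgs13 lie in quadrants of opposite sign.

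Lists of cell type markers were also set beside the family. Whether the gamma delta T cells themselves express the listed genes was not tested. The share to set beside each list is 5.03% of all genes called negative and 3.72% called positive. Of 17 measured macrophage and monocyte markers, 13 were called negative and 0 positive. All 17 means were below 0, against 2114 of 4331 over all genes, and the median was -0.817, close to the ratio of Rgs10. They ran from -1.17 for the iron exporter gene Slc40a1 to -0.0221 for the integrin gene Itgam, and Adgre1, the F4/80 antigen, was at -1.05 ± 0.035. The 8 NK cell markers had a median of -0.512, with 7 called negative. They ran from -0.9785 for Klrd1 to -0.0723 for Ncr1. Klrb1c (-0.755 ± 0.081) and Klra1 (-0.731 ± 0.13) lay between the ratios of Rgs10 and Rgs2, as did the B cell marker Ighm (-0.719 ± 0.031). Of 12 dendritic cell and MHC class II markers, 6 were called negative, led by the integrin gene Itgax at -0.649 ± 0.0097, with a median of -0.288. Of 14 B cell markers, 4 were called negative, led by Ighm at -0.719 ± 0.031, and their median was -0.195. Of 8 platelet and erythroid markers, 3 were negative calls, and their median was -0.139, a value that was 0.000475 by + polarity alone and -0.464 by - polarity alone. None of 5 neutrophil and mast cell markers was called, and their median of 0.0132 was 0.122 by + polarity alone and -0.0514 by - polarity alone.

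Of 11 T cell markers, 2 were called positive, Cd5 at 0.614 ± 0.0077 and Cd6 at 0.402 ± 0.079, and 0 negative. Over all genes 3.72% were called positive and 5.03% negative. The other 9 were not called, 2 of the 11 means were below 0, and the median was 0.110. The CD3 chain genes Cd3d (-0.00738 ± 0.0063), Cd3e (0.110 ± 0.10) and Cd3g (0.0954 ± 0.025) were not called, and Cd247, the zeta chain gene, was at -0.185 ± 0.13. The part of other cell types in the ratios of Rgs2 and Rgs10 was not tested, and from RNA of a whole population, more cells of a type and more RNA per cell cannot be told apart. The deposited values are ratios, so the level of any marker in each population was not analysed here.

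Of 32 listed genes of heterotrimeric G protein subunits 7 were measured and none was called at 2-fold. With 8.75% of all genes called, a list of 7 would often hold no call, so nothing is read from that count. Only Gnai2, Gnas and Gnat1 among the 7 are alpha subunit genes, and none of the Gq class was measured by a named probe. Gnai2, the main Gi alpha subunit of lymphocytes, was at 0.0960 ± 0.0029 (1.25-fold) with ratios of 0.0940 and 0.0980. Gnas, the alpha subunit that stimulates adenylyl cyclase, was at -0.0960 ± 0.0026, and Gnb1, a beta subunit, at 0.0899 ± 0.0019. The lowest mean was that of Gnat1, a photoreceptor alpha subunit, at -0.126 ± 0.0094. The highest was Gnb4, a beta subunit, at 0.174 ± 0.45, with opposite signs on the arrays (-0.143 and 0.491). Gnb5, the beta subunit that pairs with Rgs proteins of the R7 class, was at 0.0968 ± 0.059, and Gng4 at -0.00245 ± 0.39. The median over the 7 was 0.0899, and 0.0551 by + polarity alone.

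Other proteins with an RGS domain also gave no call. With 8.75% of all genes called, nothing is read from that for so few genes. The 6 measured of 15 listed ran from -0.270 ± 0.12 for the receptor kinase gene Grk4 to 0.0331 ± 0.021 for Grk5. Grk6, a kinase of lymphocyte chemokine receptors, was at -0.112 ± 0.041. Akap10, an anchor of protein kinase A, was at -0.0758 ± 0.11. The median over the 6 was -0.0651, and it was -0.0155 by + polarity alone and -0.107 by - polarity alone. Of 8 listed G protein modulators of other kinds, such as arrestins and Gpsm proteins, none had a named probe of its own.

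Of 34 listed genes of effectors downstream of G proteins 10 were measured. At 2-fold 0 were called, against 8.75% of all genes, and for so few genes nothing is read from that. Of the means 7 were above 0, against 2217 of 4331 over all genes. The median was 0.0479 (0.114 by + polarity alone, 0.0160 by - polarity alone). At a threshold of 1.5-fold 5 of the 10 were called, against 17.9% of all genes. Pik3cg, the PI3-kinase catalytic subunit driven by beta-gamma pairs, was the highest at 0.283 ± 0.052 (1.92-fold), just under 2-fold. Adcy6, an adenylyl cyclase, was the lowest at -0.275 ± 0.013 (1.88-fold). The phosphodiesterase genes Pde8a (-0.236 ± 0.098) and Pde4a (0.189 ± 0.0016) had opposite signs. The protein kinase A genes Prkar1a (0.0173 ± 0.00064), Prkar2a (0.0281 ± 0.17), Prkacb (0.0676 ± 0.17) and Prkaca (0.0830 ± 0.096) stayed below 1.5-fold in the mean. Prkar1b was at 0.181 ± 0.059 (1.52-fold), positive on both arrays. On the - polarity array alone, where 17.1% of all genes passed 2-fold, 1 subunit gene, 1 of the other RGS-domain genes and 3 effector genes did so.

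The receptors upstream were more varied. Of 65 listed leukocyte G protein-coupled receptor genes 49 were measured, of which 5 were called negative and 6 positive, which is 11 of 49 against 8.75% of all genes, and the median was 0.0266 (-0.0141 by + polarity alone, 0.0494 by - polarity alone). On the negative side with Rgs2 and Rgs10 were the niacin receptor Hcar2 at -0.993 ± 0.0081 (9.83-fold), the formyl peptide receptor Fpr2 at -0.490 ± 0.044 (3.09-fold), and the chemokine receptors Ccr6 at -0.480 ± 0.077 and Ccr7 at -0.478 ± 0.23. On the positive side were the leukotriene receptor Cysltr1 at 1.17 ± 0.32 (14.8-fold), the prostacyclin receptor Ptgir at 1.12 on each array (13.2-fold), the nucleotide receptor P2ry1 at 0.470 ± 0.15 and the chemokine receptor Cxcr5 at 0.405 ± 0.032.

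Rgs2 is also known as an immediate early gene, so that class was examined. Of 32 listed genes 28 were measured, and 4 were called negative and 1 positive (against 5.03% and 3.72% of all genes). Of the 28, 23 had a mean below 0, against 2114 of 4331 over all genes, and the median was -0.157. The called genes were the transcription factor genes Klf4 (-0.476 ± 0.036) and Jun (-0.341 ± 0.057), the growth arrest gene Gadd45a (-0.366 ± 0.039), the nuclear I-kappa-B gene Nfkbiz (-0.364 ± 0.024) and, on the positive side, Ier3 (0.496 ± 0.056). Fos was at -0.146 ± 0.075 and Egr1 at 0.00577 ± 0.065, and both were named after their values were seen.

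**Figure D3:**
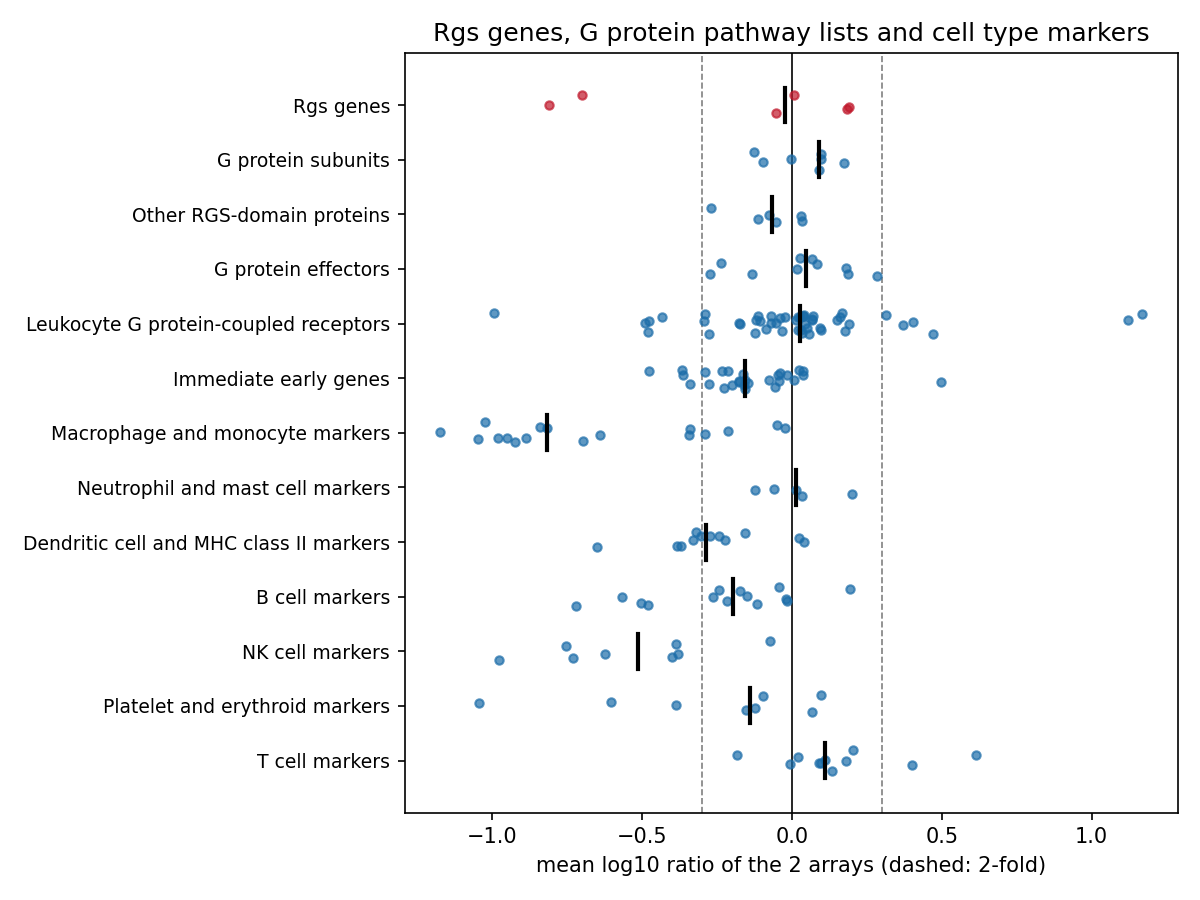
Mean log10 ratio of the 2 arrays (x axis, dashed lines at 2-fold) for each gene (points) of the Rgs family, of 5 lists of G protein and early response genes and of 7 lists of cell type markers (y axis), with the median of each list as a black bar. Rgs10 (-0.810) lies near the median of the macrophage markers (-0.817). Rgs2 (-0.701) lies between that median and that of the NK cell markers (-0.512), and both genes lie within the range of each of these lists. They also lie within the range of the platelet and erythroid markers (-1.04 to 0.0958) and of the leukocyte receptors (-0.993 to 1.17). These positions rest on the ratios that chose the set, so no source is read from them. The means of the G protein subunits and effectors stay within 2-fold.

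The chromosomal surroundings of both leading genes were compared next, a choice made after their ratios were known. Rgs2 lies on chromosome 1, which as a whole holds 11 of the 21 Rgs genes of RefSeq. None of its 10 nearest measured neighbours was called. With 8.75% of all genes called, nothing is read from that for so few genes. The neighbours ran from -0.199 for Ptgs2, the inducible cyclooxygenase gene, to 0.221 for the kinase gene Nek7. Rgs13, directly beside Rgs2, had the mean of 0.184 given above. Ptgs2 was negative on both arrays (-0.220 and -0.177), below 2-fold on each.

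Rgs10 lies on chromosome 7, as does Lat, the gene that carries the mutation. RefSeq places 98 protein-coding genes between them, and 19 of these were measured. Of the 19, 1 was called negative and 1 positive, 10 means were below 0 and 9 above, and the median was -0.00146. The called genes were Itgax at -0.649 ± 0.0097 (-0.656 and -0.642 on the arrays), the nearest measured gene to Rgs10 on the side of Lat, and Bcl7c, which encodes a subunit of the SWI/SNF chromatin remodelling complex, at 0.365 ± 0.041. Lat itself was at 0.179 ± 0.010 (1.51-fold), opposite in sign to Rgs10. On the far side of Rgs10, the WD-repeat gene Wdr11 was called negative at -0.381 ± 0.0081, whereas Mcmbp, which encodes a partner of the MCM helicase, was at -0.120 ± 0.047 and Tial1, an RNA-binding protein gene directly beside Rgs10, at 0.0717 ± 0.35. In all, 3 of the 10 nearest measured neighbours of Rgs10 were called, 2 of them negative, against 8.75% of all genes called and 5.03% called negative. Whether lying on the chromosome of the mutated gene has a part in the ratio of Rgs10 was not tested.

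**Figure D4:**
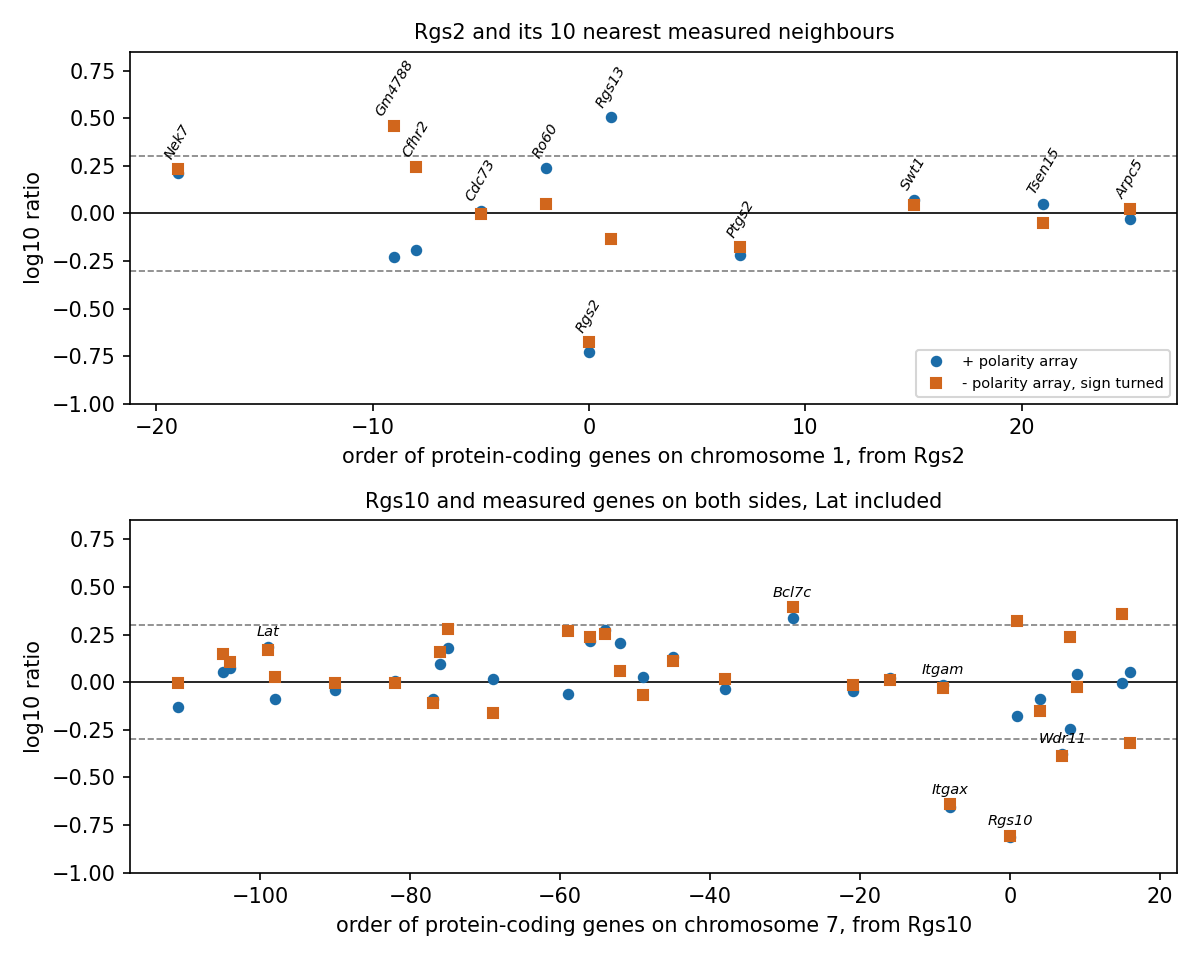
Log10 ratio on both arrays (y axis, dashed lines at 2-fold) for measured genes in chromosomal order (x axis, position in the order of protein-coding genes counted from Rgs2 in the upper panel and from Rgs10 in the lower). Rgs2 is the only gene of the upper panel called at 2-fold, where 8.75% of all genes were called. Itgax and Wdr11 near Rgs10 are also below -0.301, and the genes between Lat and Rgs10 have a median of -0.00146.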

How the data were processed

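Per the labels, each array was hybridised with wildtype and LAT3YF RNA in opposite dyes. The deposited table holds a log ratio for each probe on each array, computed by the authors and taken here as log10. The labels state no scanner, background correction, normalization, base or numerator. The deposited values were already centred (medians -0.00284 and 0.00101) and correlated at r = -0.301 across 8014 probes, as dye-reversed ratios do, so the - polarity column was sign-turned. No intensities were used, so background is unknown, and precision is limited by there being 2 arrays.

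Of the probes, 4654 had 1 gene in the platform annotation, 73 several and 3287 none listed. Gene IDs of 4640 matched RefSeq, and 0 symbols changed. A gene's value is the mean over its single-gene probes (294 of 4331 genes had more than 1). Members and lists were chosen with earlier results of these data known. Named were all Rgs genes, up to 4 called members per list and direction (otherwise the 2 of largest size), any member of lists with at most 15 measured genes, the 5 genes nearest to Rgs2 and Rgs10, and chromosomal neighbours added later. The calling rule was run on simulated ratios with the same normal error for every gene, which checks the code and not its accuracy on these data. Python 3.11.15, pandas 2.3.3 and numpy 2.4.6 were used.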

Additional observations from a re-analysis of the deposited data

How the results depend on the processing

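The calls of Rgs2 and Rgs10 held on each array alone, after centring, after centring and scaling, with probe medians, at 1.5-fold and 3-fold, with natural logs and where each array had to pass 2-fold by itself. Read as log2 values, 0 of the 6 Rgs genes passed 2-fold, and 0.393% of all genes did. Rgs10 moved to -0.818 when the arrays were centred and scaled, a shift larger than its SD between the arrays. Leaving out the + polarity array (replicate 1) gave 2 called Rgs genes, and leaving out the - polarity array gave 3, with Rgs13 added. At 1.5-fold Rgs3 was added. Of 50 counts recomputed for 5 pathway lists, 12 moved by more than 1.5 times, and of 25 medians 3 moved by more than the median SD of the list, all with 1 array left out (G protein subunits and, both ways, the other RGS-domain genes). With 1 replicate there is no check on animals or RNA extracts, and without intensities weak signals cannot be told from strong ones.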
